A study of Mus musculus with 4 samples.

Results

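Imprinted genes that control growth were followed through 10 days of culture of mouse growth plate-like chondrocytes. The set holds 10 genes, H19, Plagl1, Mest, Peg3, Peg10, Dlk1, Meg3, Grb10, Ndn and Slc38a4, taken by name from a table of 24499 genes, and all 10 were found there. Values are read counts scaled to library size (CPM), and a gene was tested where its 4 day means averaged at least 1 CPM. Of the 10 genes, 8 passed, as did 12109 genes of the whole table. Slc38a4 and Meg3 did not pass. Dlk1 passed only through day 10, on which it was highest: the other day means average 0.765 CPM. Without day 10, Peg3 would still pass at 2.51 CPM and Ndn at 1.15 CPM. The cells are wild-type growth plate-like chondrocytes (GPLC), labelled as a cell line and kept with fetal bovine serum, ascorbic acid, insulin, transferrin and selenium. Total RNA of sorted cells was sequenced after removal of ribosomal RNA on days 1, 3, 5 and 10 of culture, and the study compared these days. The labels set the groups apart by time alone; day 1 has libraries 1, 3 and 4, and each other day has libraries 1 to 4. No animal, clone or passage is given for the cells, and the labels name 1 sample a day, so whether the libraries are separate cultures is not known. The p-values then reflect how libraries of a day differ from each other, and that difference may be technical.

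An imprinted gene is read mainly from the copy inherited from the mother or from that inherited from the father, because methylation laid down in the egg or sperm is kept on its control region. Many paternally expressed genes promote fetal growth and many maternally expressed genes restrain it, and a group of them is expressed together in growing organs of the mouse and declines as those organs slow their growth after birth. In the growth plate, cartilage cells divide, enlarge and mineralise their matrix, and bones lengthen as they do so. The reads here do not separate the parental copies, so which copy was read was not measured.

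H19 and Mest, both well read here, also host microRNAs, whose mature sequences show what else their transcripts can release; Meg3 holds microRNA genes too but was near 0. H19 contains miR-675 within an exon, and Mest contains miR-335 within an intron. The sequences below are from RefSeq on GRCm38.p6, written 5′ to 3′, with the seed at bases 2 to 8 in capitals.
mmu-miR-675-5p: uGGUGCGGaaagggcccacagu
mmu-miR-675-3p: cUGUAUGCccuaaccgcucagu
mmu-miR-335-5p: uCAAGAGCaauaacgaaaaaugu
mmu-miR-335-3p: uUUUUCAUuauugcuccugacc
No seed is shared among them. The libraries count long RNA and are not a measure of mature microRNAs. The Mir675 row was at 0 in all 15 libraries, and the Mir335 row held 112 reads in all, at 0 to 0.855 CPM.

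Plagl1 encodes a zinc-finger factor that binds the palindrome GGGGCCCC and is known in the mouse to act on other imprinted genes, so the members' promoters were searched for those letters, which read alike on both strands. RefSeq windows of 250 bases before to 50 after a start were at hand for 8 of the 10 genes, 14 windows in all. Of these, 1 window held the palindrome, that of Peg3, against 1.08% of 32851 mouse windows. The 250 bases before the Peg3 start, at chr7:6730420-6730669 on the minus strand of GRCm38.p6, are shown because Peg3 had the highest fold change of the set, with the palindrome in capitals.
Peg3: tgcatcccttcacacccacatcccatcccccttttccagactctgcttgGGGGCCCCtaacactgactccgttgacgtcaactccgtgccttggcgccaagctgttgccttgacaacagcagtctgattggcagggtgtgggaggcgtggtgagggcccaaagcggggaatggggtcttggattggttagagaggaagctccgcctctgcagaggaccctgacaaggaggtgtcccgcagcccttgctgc
The palindrome ends 193 bases before the start. A match is a description of the letters and was not tested as a binding site.

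The libraries held 12492537 to 18841621 reads. The cartilage genes Col2a1, Acan, Sox9, Col9a1, Hapln1 and Matn1, summed, stood at 4430 to 4992 CPM on day 1, 10979 to 25296 CPM on day 3, 2436 to 7085 CPM on day 5 and 1735 to 14518 CPM on day 10. Summed osteoblast markers (Sp7, Ibsp, Bglap, Phex, Dmp1 and Col1a1) spanned 7863 to 63371 CPM on day 10. Library 2 was at the top, with 61215 CPM from Col1a1 alone. Of the 6 markers, 5 rose from day 1 (background 24.3%). Bglap, counted among these, was tested only through day 10, since no earlier library was above 0.922 CPM. Lists of 6 markers each for white blood cells, endothelium and skeletal muscle summed to at most 12.1 CPM in any library, those of adipocytes to 24.2 to 50.8 CPM and those of neurons to 14.1 to 72.6 CPM. Library numbers matter for some of the genes: libraries 1 and 2 stood apart from libraries 3 and 4 of the same day, as given below. In bulk RNA, fewer cells of a type and less RNA per cell cannot be told apart.

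The genes fell into an abundant and a scarce group. Per kilobase of exon, the mean over the days was 144 CPM for Peg10, 94.1 for Mest, 79.0 for Grb10, 20.1 for Plagl1 and 19.6 for H19. The other members stood far lower, at 0.461 CPM per kilobase for Ndn, 0.385 for Peg3, 0.215 for Dlk1, 0.130 for Slc38a4 and 0.000843 for Meg3. On day 1 the order Peg10, Mest, Grb10, Plagl1, H19, Ndn had no overlap between neighbours in any library. On day 10 Grb10 led with a mean of 77.4 CPM per kilobase, ahead of Peg10 at 62.8, Mest at 58.6 and H19 at 55.7, and each of these overlapped its neighbour. Without library 2 the day 10 mean of H19 was 29.5 CPM per kilobase. Plagl1, at 15.0 CPM per kilobase, then lay below every H19 library.

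**Figure D1:**
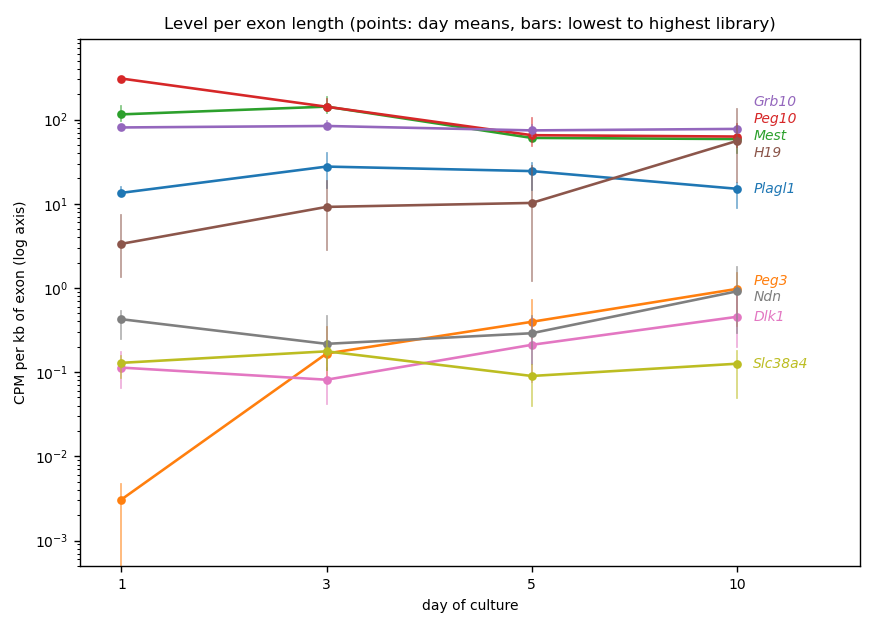
Level of 9 of the genes in CPM per kilobase of exon (log axis) against the day of culture, with points for day means and bars from the lowest to the highest library; the Peg3 bar of day 1 runs to the bottom of the axis because 1 library was at 0, and Meg3 is not drawn. On day 10 the means of Grb10, Peg10, Mest and H19 are 55.7 to 77.4. The H19 libraries of that day run from 18.2 to 134, and without library 2 the H19 mean is 29.5.

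Differences were tested with limma on log2(CPM + 1) over all 12109 genes, with Benjamini-Hochberg adjustment at 0.05, and every adjusted p below is from that fit unless another is named. A log2 difference on this scale understates the change of genes near 0. Against day 1, 2 of the 8 tested genes were called higher on day 3 (Plagl1 and Peg3), where 15.7% of all tested genes were, and 1 was called lower (Peg10), against 16.1%. On day 5 Plagl1 and Peg3 were again called higher, 2 genes against a background of 25.2%, and Mest and Peg10 lower, 2 against 24.8%. On day 10 the 3 genes called higher were H19, Peg3 and Dlk1, against 24.3% (Dlk1 was tested only because it was high on that day), and the 2 called lower were Mest and Peg10, against 25.1%. The comparisons with day 1 share its 3 libraries.

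Between the later days the calls were fewer across the genome. From day 3 to day 5, Mest and Peg10 fell, 2 genes against a background of 4.03%. No member was called higher there by limma (background 5.1%), edgeR or DESeq2, and 1 was higher at an unadjusted p under 0.05. From day 3 to day 10, Peg3, Dlk1 and Ndn were called higher, 3 genes against 12.5% (Dlk1 again tested only through day 10; DESeq2 called 4, with H19 added), and Mest, Peg10 and Plagl1 lower, 3 against 9.65%. That pair of days had 1514 genes higher and 1169 lower in all, and 1313 and 1539 with plain CPM, without the TMM scaling. From day 5 to day 10, 0 members were called higher (background 3.75%) and 0 lower (background 2.02%) by limma, edgeR or DESeq2, while 4 were higher and 1 lower at an unadjusted p under 0.05. A fit with the library number as a block rests on same-numbered libraries deviating alike, since no label pairs them. In that fit 2 genes were called higher, H19 and Ndn, against 7.19% of all genes, and 1 lower, Plagl1, against 5.25%.

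Many of these calls rest on days whose libraries did not overlap. Against day 1, Peg3 lay wholly above on day 3 (1 gene, against 24.1% of tested genes) and on day 5 (1 against 30%), and Peg3, H19 and Dlk1 on day 10 (3 against 25.4%). Peg10 lay wholly below on day 3 (1 against 26.4%), and Mest and Peg10 on days 5 (2 against 30.1%) and 10 (2 against 27.3%). From day 3, Mest and Peg10 lay wholly below on day 5 (2 against 9.04%) and day 10 (2 against 9.55%), while on day 10 Peg3 and Dlk1 lay wholly above (2 against 11%). In the day 10 counts against days 1 and 3, Dlk1 was among the tested genes only through its day 10 level. On day 5 against day 3, 0 lay wholly above (background 9.55%). Days 5 and 10 overlapped for all 8 genes (backgrounds 6.22% above and 5.3% below).

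**Figure D2:**
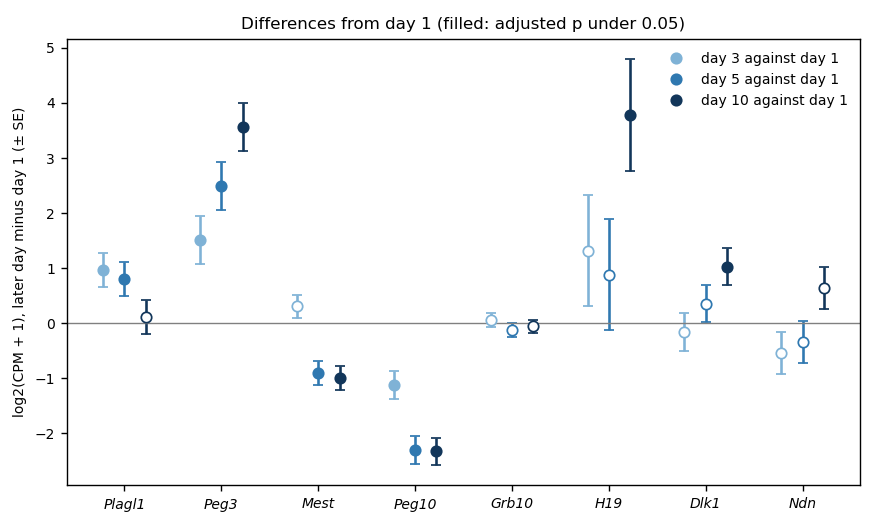
Difference of log2(CPM + 1) from day 1 (vertical axis) for the 8 tested genes on days 3, 5 and 10, with bars for the standard error and filled points for an adjusted p under 0.05. Peg10 falls by 1.12, 2.31 and 2.33, Peg3 rises by 1.51, 2.49 and 3.57, and the Grb10 points lie between -0.12 and 0.06.

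Plagl1 was raised on days 3 and 5, and its day 10 libraries overlapped those of day 1. The gene lies on chromosome 10 (13060504 to 13131694, plus strand), is paternally expressed and is linked in the mouse to embryonic growth and bone formation. It stood at 124, 96.1 and 95.9 CPM in libraries 1, 3 and 4 of day 1 and at 311, 122, 209 and 223 CPM in libraries 1 to 4 of day 3. On day 5 it stood at 239, 114, 201 and 210.4 CPM and on day 10 at 136, 69.7, 137 and 128 CPM. Library 2 was the lowest of its day on days 3, 5 and 10, and on days 3 and 5 it alone overlapped the range of day 1. The rise was 0.96 ± 0.31 on the log2 scale on day 3 (SE, adjusted p = 0.0272) and 0.81 ± 0.31 on day 5 (adjusted p = 0.0397). Within a library number it was 2.51-fold, 2.17-fold and 2.32-fold on day 3. Day 10 differed from day 1 by 0.12 ± 0.31 (adjusted p = 0.771), with library numbers 1, 3 and 4 at 1.098-fold, 1.42-fold and 1.34-fold of day 1 and the lowest library, 2, having no day 1 counterpart. From day 3 it fell by 0.84 ± 0.29 (adjusted p = 0.0457).

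These Plagl1 calls are close to the threshold. The day 3 call was lost without any 1 of libraries 3 and 4 of day 1 or 1, 3 and 4 of day 3 (adjusted p 0.0521 to 0.0907), and the day 5 call without libraries 3 and 4 of day 1 or 1, 3 and 4 of day 5 (0.0800 to 0.112). The day 5 call also ended with plain CPM (0.0511) and with no filter (0.0668). The fall from day 3 to day 10 was lost when any 1 of 10 libraries was left out (all 3 of day 1, libraries 1, 3 and 4 of day 3, 3 and 4 of day 5, 2 and 4 of day 10; adjusted p 0.0543 to 0.124). From day 5 to day 10 the gene was lower in 4 of 4 library numbers, and with the block it fell by 0.69 (adjusted p = 0.000685), against an adjusted p of 0.157 without it.

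Peg3 went from almost no reads to a low level. It is a paternally expressed zinc-finger gene on chromosome 7 (6703892 to 6730431, minus strand), known in the mouse for effects on body size and maternal care. The 3 libraries of day 1 stood at 0.0609, 0 and 0.0619 CPM, 2 reads in all. Day 3 gave 4.64, 1.02, 1.78 and 1.42 CPM, day 5 gave 9.63, 3.69, 3.41 and 4.37 CPM, and day 10 gave 9.05, 4.71, 19.8 and 18.4 CPM. Every later library lay above every library of day 1. With 847 reads on day 10, the scaled read ratio to day 1 was 300.0, with an exact 95% interval of 82.8 to 2482 that covers counting error only. The log2 differences from day 1 were 1.51 ± 0.44 on day 3 (adjusted p = 0.0171), 2.49 ± 0.44 on day 5 (adjusted p = 0.000286) and 3.57 ± 0.44 on day 10 (adjusted p = 1.48e-05).

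Its order among libraries changed over the course. Library 1 was the highest on days 3 and 5, and libraries 3 and 4 were the highest on day 10. The step from day 3 to day 10 was 2.06 ± 0.41 (adjusted p = 0.00283), with no overlap, and was not called without library number 3 or 4 (adjusted p 0.0543 and 0.0716) or with both averaged (0.0560). The day 3 call was lost without library 3 of day 1 or without library 1 of day 3 (adjusted p 0.0541 and 0.0557).

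Peg10 was the most abundant of the set on day 1 and had the largest fall from that day among the tested members; per kilobase, the Grb10 mean was above it on days 5 and 10. It derives from a retrotransposon, is paternally expressed and is required for the mouse placenta; it lies on chromosome 6 (4747306 to 4760517, plus strand). Day 1 held 2058, 2043 and 2033 CPM. The level was 1171, 886, 848 and 879 CPM on day 3, 695, 349.6, 369 and 324 CPM on day 5, and 433, 587, 337 and 317 CPM on day 10. No library of a later day reached day 1, none of day 5 or 10 reached day 3, and days 5 and 10 overlapped. From day 1 the gene fell by 1.12 ± 0.25 to day 3 (adjusted p = 0.00368), by 2.31 ± 0.25 to day 5 (adjusted p = 4.63e-06) and by 2.33 ± 0.25 to day 10 (adjusted p = 4.24e-06). Within library numbers 1, 3 and 4, day 10 was 4.75-fold, 6.06-fold and 6.41-fold below day 1. The day 3 call was lost without library number 3 (adjusted p = 0.0593). From day 3 to day 5 it fell by 1.18 ± 0.23 (adjusted p = 0.00702), a call lost without library number 3 or 4 (adjusted p 0.139 and 0.0928) or with both averaged (0.109).

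Mest kept its level to day 3 and then fell. It is a paternally expressed gene of the alpha/beta hydrolase fold, on chromosome 6 (30723547 to 30748465, plus strand), and marks mesoderm in the mouse embryo. It stood at 572, 384 and 406 CPM on day 1, at 576, 728, 474 and 467 CPM on day 3, at 257, 239, 229.7 and 228 CPM on day 5 and at 329, 219, 218 and 159 CPM on day 10. All libraries of days 5 and 10 lay below all of days 1 and 3. The difference from day 1 was 0.30 ± 0.21 on day 3 (adjusted p = 0.301); the gene then fell by 1.21 ± 0.20 from day 3 to day 5 (adjusted p = 0.00267), and the difference of day 10 from day 1 was -0.99 ± 0.21 (adjusted p = 0.00139). The fall from day 3 to day 5 was not called without library number 3 (adjusted p = 0.0785) or with libraries 3 and 4 averaged (0.0505). Its last exons overlap Copg2 on the other strand, 912 of 3945 exon bases, and the strand setting of the counting is not given in the sources used here. Copg2 itself was at 80.8 to 100.4 CPM throughout and was not called against day 1. The Mir335 row within the Mest intron had 27 reads on day 1, 37 on day 3, 37 on day 5 and 11 on day 10.

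The proliferation genes fell over the same course: 7 of 8 were called lower on day 3 (background 16.1%), as Peg10 was, while Mest was not called there. All 8 of Mki67, Top2a, Ccnb1, Cdk1, Mcm2, Mcm5, Pcna and Rrm2 were lower on day 10 than on day 1 (background 25.1%). Their summed level was 2778 to 3329 CPM on day 1, 1219 to 1833 CPM on day 3, 654 to 1089 CPM on day 5 and 735 to 1346 CPM on day 10. Their part in the fall of Peg10 and Mest was not tested.

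Grb10 showed little change over the course and was called in no comparison. It encodes an adaptor that restrains signalling of the insulin and IGF receptors, is read from the maternal copy in most mouse tissues, and lies on chromosome 11 (11930508 to 12038683, minus strand). The libraries stood at 691, 743 and 761 CPM on day 1, 862, 733, 723 and 729.7 CPM on day 3, 777, 579, 669 and 676 CPM on day 5 and 722, 757, 651 and 682 CPM on day 10. The days overlapped in all 6 comparisons. Day 5 was below day 3 in 4 of 4 library numbers, at 0.901, 0.790, 0.926 and 0.926 of its level, with a difference of -0.18 ± 0.11 (adjusted p = 0.369, or 0.278 with the library block). The difference from day 1 was 0.06 ± 0.12 on day 3, -0.12 ± 0.12 on day 5 and -0.06 ± 0.12 on day 10 (adjusted p 0.764, 0.424 and 0.715).

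Around Grb10, other genes of the insulin and IGF pathway did change. Of 17 tested, 8 were higher on day 10 than on day 1 (background 24.3%) and 2 lower (background 25.1%). Pik3r1, a regulatory subunit of PI3 kinase, rose from 73.8 to 463 CPM (2.63 ± 0.31, adjusted p = 1.11e-05). Grb14, an adaptor of the same family as Grb10, rose from 4.48 to 31.6 CPM (2.60 ± 0.29, adjusted p = 5.95e-06), and the ligand Igf1 from 0.355 to 9.50 CPM (2.47 ± 0.49, adjusted p = 0.000777). Library 2 of day 10 held 26.4 CPM of Igf1, and without it the day mean was 3.86 CPM. Igf1, counted among the 8, was tested only through day 10, since no earlier library was above 0.997 CPM. The genes that fell were Igf2bp1 and Igf2bp2, which bind Igf2 mRNA, from 87.3 to 55.8 CPM and from 5.08 to 1.94 CPM. The list median was 0.44 on the log2 scale, beside -0.01 for all tested genes.

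H19 was called higher than on day 1 only on day 10, and its libraries of 1 day differed widely. It is a maternally expressed noncoding RNA, known in the mouse as a brake on fetal growth, on chromosome 7 (142575529 to 142578143, minus strand). It stood at 17.9, 3.45 and 3.28 CPM in libraries 1, 3 and 4 of day 1, at 46.0, 29.7, 6.92 and 7.62 CPM on day 3, at 69.6, 24.9, 2.99 and 3.06 CPM on day 5 and at 127, 330.4, 44.9 and 46.0 CPM on day 10. Every day 10 library lay above every day 1 library, and on each day libraries 3 and 4 lay below the others. The rise from day 1 to day 10 was 3.78 ± 1.01 (adjusted p = 0.00612), and within library numbers 1, 3 and 4 it was 7.09-fold to 14.0-fold. Days 3 and 5 differed from day 1 by 1.32 ± 1.01 and 0.88 ± 1.01 (adjusted p 0.346 and 0.489). From day 3 to day 10 the difference was 2.47 ± 0.94 (adjusted p = 0.0697; 0.072 by edgeR and 0.0485 by DESeq2), with 4 of 4 library numbers higher. From day 5 to day 10 it was 2.90 ± 0.94 (adjusted p = 0.0808), again with 4 of 4 higher, and with the block the adjusted p was 0.000762. On day 10 the osteoblast markers summed to 16056, 63371, 7863 and 20062 CPM in libraries 1 to 4, of which Col1a1 made up 15623, 61215, 7793 and 20013 CPM. Library 2 was the highest for H19 and for each marker. Library 4 was the lowest for Ibsp (19.7 CPM), Bglap (0.226 CPM) and Phex (5.95 CPM). It was above library 3 for Sp7 (12.4 CPM) and above libraries 1 and 3 for Dmp1 (10.5 CPM). The part of the osteoblast markers in the H19 rise was not tested.

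**Figure D3:**
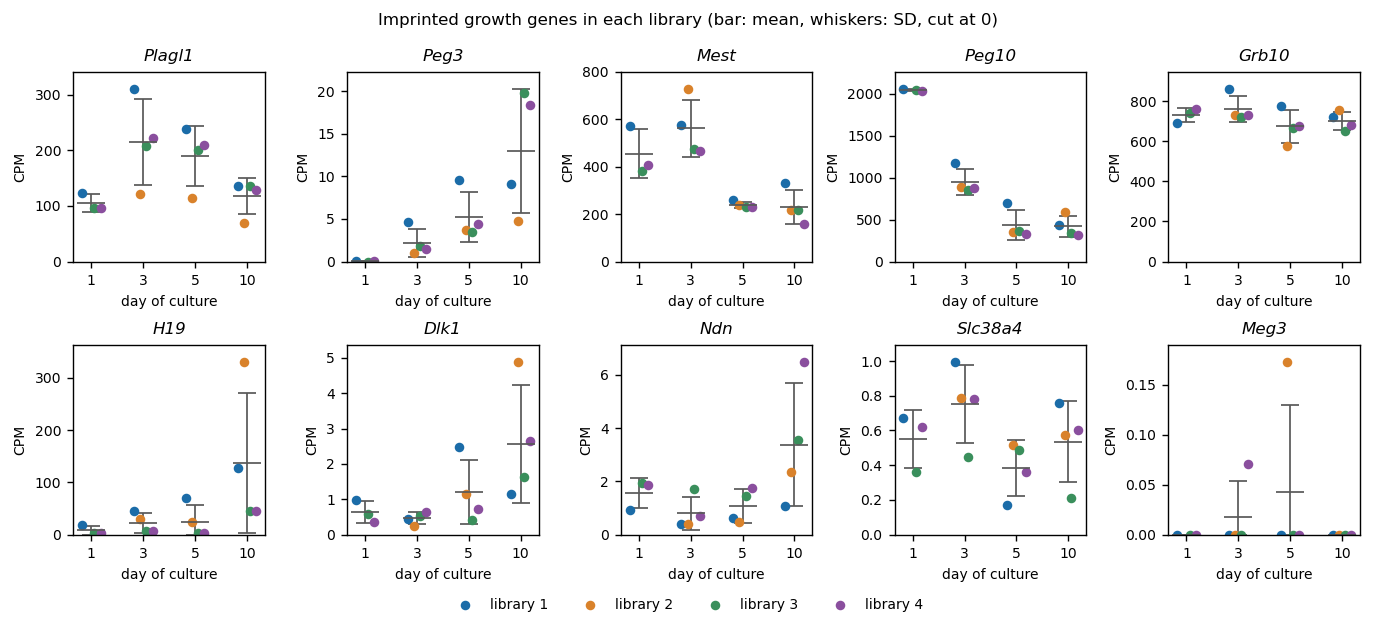
CPM of each of the 10 genes (vertical axis, from 0, a scale of its own in each panel) by day of culture, with 1 point per library coloured by library number, a bar for the day mean and whiskers for the SD. H19 library 2 of day 10 reaches 330.4 CPM, and Grb10 stays between 579 and 862 CPM.

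Imprinted genes near H19 on the same chromosome were read beside it. Igf2 is of the same imprinted region, while Cdkn1c (143458339 to 143461050) and Kcnq1ot1 belong to a neighbouring one. Igf2, the paternally expressed fetal growth factor, did not reach the 1 CPM filter. It held 2 reads on day 1, 11 on day 3, 22 on day 5 and 104 on day 10, when it stood at 1.27, 3.21, 0.575 and 1.28 CPM. Each day 10 library lay above every earlier one, and the scaled read ratio of day 10 to day 1 was 36.8 (exact 95% interval 9.95 to 308, counting error only). In a fit with no filter the difference was 1.21 ± 0.25 (adjusted p = 0.00173). Cdkn1c, the maternally expressed inhibitor of cell division that acts in growth plate cartilage, stood at 0.853, 0.863 and 0.680 CPM on day 1 and 7.47, 10.6, 2.25 and 3.54 CPM on day 10, with no overlap. It rose by 1.78 ± 0.56 (adjusted p = 0.0159). On days 3, 5 and 10 libraries 1 and 2 were above 3 and 4. Both annotations overlap another gene, Igf2 on the same strand (3596 of 5723 exon bases, with Gm49394) and Cdkn1c on the other strand (625 of 2039, with Gm44732). The antisense RNA Kcnq1ot1 ranged from 19.2 to 256 CPM and was not called.

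**Figure D4:**
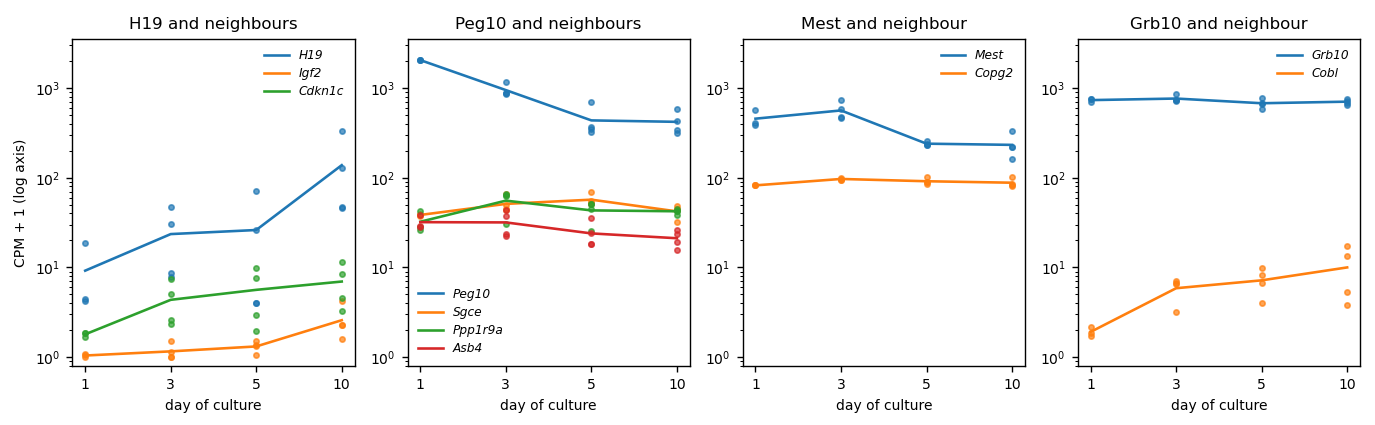
CPM + 1 (log axis) by day of culture for H19, Peg10, Mest and Grb10 and genes of the same imprinted regions or, for Cdkn1c, a neighbouring one, with points for libraries and lines for day means. Peg10 and Mest fall while Sgce, Ppp1r9a and Copg2 have means of 31.3 to 95.9 CPM, and Igf2 stays at or below 3.21 CPM. The Asb4 mean is also lower on day 10 than on day 1, a difference that was not called.

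The neighbours of the other members did not all follow them. Of 28 genes listed as partners in or near the members' regions, 8 were tested. On day 10 against day 1 Cdkn1c and Cobl were higher (2 against 24.3%) and Ube3a lower (1 against 25.1%). Sgce shares its control region with Peg10 and runs the other way from it. It was at 37.5 CPM on day 1 and 56.0 CPM on day 5 (0.56 ± 0.17, adjusted p = 0.0117), when Peg10 had fallen, and at 41.2 CPM on day 10 (0.11 ± 0.17, adjusted p = 0.589). Ppp1r9a and Asb4, also of that region, were called in no comparison with day 1; Asb4 stood at 31.0 CPM on day 1 and 20.2 CPM on day 10 (-0.61 ± 0.27, adjusted p = 0.0742). Cobl, next to Grb10, stood at 1.16, 0.719 and 0.866 CPM on day 1 and 4.37, 2.81, 12.3 and 16.6 CPM on day 10, and rose by 2.13 ± 0.46 (adjusted p = 0.00152).

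Dlk1 and Meg3 share 1 imprinted region on chromosome 12, and both were scarce. Dlk1 (109452823 to 109463336, plus strand) is a paternally expressed membrane protein with EGF-like repeats that holds back fat cell formation. It stood at 0.975, 0.576 and 0.371 CPM on day 1, 0.442, 0.236, 0.521 and 0.641 CPM on day 3, 2.48, 1.15, 0.427 and 0.719 CPM on day 5, and 1.14, 4.88, 1.62 and 2.64 CPM on day 10. Day 10 lay above days 1 and 3 in every library and overlapped day 5. Dlk1 passed the filter only through day 10, so its tests of that day are on a gene selected by it. The rise from day 1 was 1.03 ± 0.34 (adjusted p = 0.0199), and the call was lost without library 3 or 4 of day 1 or library 2 of day 10 (adjusted p 0.0510 to 0.0803). From day 3 it was 1.19 ± 0.31 (adjusted p = 0.0146), lost without library number 2, 3 or 4 (adjusted p 0.0588 to 0.110) or with libraries 3 and 4 averaged (0.0701).

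Meg3 (109541001 to 109571726, plus strand), the maternally expressed noncoding RNA of the region, held 4 reads in all, 1 on day 3 and 3 on day 5. A count of 0 over the libraries of day 10 allows up to 0.0457 CPM, and over those of day 1 up to 0.0645 CPM. Rian and Mirg, noncoding RNAs further along the region, reached at most 0.110 and 0.230 CPM. At this depth no change of Meg3 could be seen.

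Ndn and Slc38a4 were scarce as well. Ndn, the paternally expressed necdin gene of the Prader-Willi region on chromosome 7 (62346569 to 62350262, plus strand), restrains cell division in neurons. It stood at 0.914, 1.94 and 1.86 CPM on day 1, 0.387, 0.393, 1.71 and 0.712 CPM on day 3, 0.619, 0.461, 1.46 and 1.74 CPM on day 5, and 1.08, 2.35, 3.56 and 6.48 CPM on day 10. Days 3 and 10 overlapped, and libraries 3 and 4 were above the others on each day. From day 3 to day 10 it rose by 1.18 ± 0.35 (adjusted p = 0.0275), a call lost without any 1 of libraries 1, 2 and 4 of day 3 or 3 and 4 of day 10 (adjusted p 0.0569 to 0.0847). From day 5 to day 10 the difference was 0.97 ± 0.35 (adjusted p = 0.115, or 0.0198 with the library block), and 4 of 4 library numbers were higher. Slc38a4, a paternally expressed amino acid transporter on chromosome 15 (96994820 to 97055956, minus strand), ranged from 0.169 to 0.994 CPM over 131 reads, the days overlapped in all comparisons, and it was not tested.

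Library numbers ordered some genes on every day. Libraries 1 and 2 lay above libraries 3 and 4 on all 4 days for H19 and Mest, as for 3.02% of tested genes, and below them for Ndn, as for 2.11% (on day 1 there is no library 2). Nothing in the labels says what the numbers mark. With libraries 3 and 4 of each day averaged and counted as 1, H19 and Peg3 remained higher and Mest and Peg10 lower on day 10 than on day 1, and Dlk1 was not called (adjusted p = 0.0963).

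The genes most like each member were found by Pearson r of log2(CPM + 1) over the 15 libraries, among 10186 genes averaging at least 5 CPM. This is a description, since the points share days and library numbers. H19 was closest to Panx3, a pannexin channel of bone and cartilage (r = 0.92), then Tspan13 (0.91) and the receptor Fgfr2 (0.90). Panx3 stood at 10.32, 16.3, 16.8 and 94.4 CPM on days 1, 3, 5 and 10, and at 47.95 CPM on day 10 without library 2. Peg10 was closest to Gcnt1 (0.97), cyclin E1, Ccne1 (0.96) and Nfyb (0.96); Ccne1 went from 42.6 CPM on day 1 to 12.4 CPM on day 10. Peg3 was closest to Enah (0.97), Cttnbp2nl (0.96) and Igfals (0.96), the last a partner of circulating IGF complexes that went from 0.144 to 20.1 CPM. For Plagl1 the nearest were Zfp84 (0.93), Zkscan8 (0.93) and Mbnl2 (0.93), and for Mest they were Pde3b (0.93), Zdhhc6 (0.91) and Polr3k (0.90). Grb10, with little change over the days, had Tspyl4 (0.85), Ddit4 (0.83) and Brwd3 (0.79). In the sparse counts of Ndn and Dlk1, the nearest genes were Gtf2ird1 (0.92), Preb (0.92) and Afg3l2 (0.88), and Ehd3 (0.87), Ano6 (0.86) and Adam12 (0.85).

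A further list held 26 genes reported as imprinted in at least 1 mouse tissue, and whether they are imprinted in these cells was not measured. Of these, 19 were tested, and on day 10 against day 1 there were 6 higher (background 24.3%) and 4 lower (background 25.1%). Decorin, Dcn, a matrix proteoglycan, rose from 3.85 CPM (2.49 without library 1) to 239 CPM (5.68 ± 0.33, adjusted p = 2.19e-08). Igf2r, which clears IGF2 from the cell surface, rose from 259.6 to 433 CPM (0.73 ± 0.22, adjusted p = 0.0128). Rasgrf1 was the one with the lowest difference, from 3.19 to 0.750 CPM (-1.24 ± 0.42, adjusted p = 0.0230). The list median was 0.22 on the log2 scale, beside -0.01 for all tested genes.

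The list of factors that write or keep imprints also holds the Tet genes, which act to remove methylation. Its calls went in both directions. Of 13 tested, 3 were higher on day 10 than on day 1, near the background of 24.3%, and 5 lower (background 25.1%). Uhrf1 and Dnmt1, which copy methylation after replication, went from 165 to 63.3 CPM (-1.38 ± 0.20, adjusted p = 5.61e-05) and from 393 to 211 CPM (-0.91 ± 0.17, adjusted p = 0.000520). Ctcf, which binds the unmethylated control region of H19, went from 173 to 105 CPM (-0.73 ± 0.11, adjusted p = 6.34e-05). The genes called higher were Dnmt3a (64.6 to 113 CPM), Tet2 (25.9 to 41.8 CPM) and Zfp57 (4.77 to 7.93 CPM). Methylation itself was not measured.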

How the data were processed

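The table holds a signal deposited by the authors for 24499 gene symbols in 15 libraries, in which 100% of values were whole multiples of the value of 1 read (tolerance 0.001); it is CPM scaled by TMM. The submitters' processing notes name STAR, featureCounts, edgeR and GRCm38. Their versions, the annotation and the strand setting were not given in the sources used here. Depth was 12492537 to 18841621 recovered reads a library. Gene positions and exon lengths come from GENCODE M21.

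Days were compared with limma 3.58.1 (trended prior, log2(CPM + 1), mean of 1 CPM or more, all libraries in 1 fit, no block). Count tests on the recovered reads used edgeR 4.0.16 and DESeq2 1.42.0; from day 5 to day 10 edgeR called 522 genes higher and 214 lower, limma 454 and 245. The fits were tested on simulated data. Other pseudocounts (0.25 and 5), filters, plain CPM, a library block and left-out libraries were tried. Deviations of same-numbered libraries from their day means correlated at over 0.1 in every pair for days 3 and 1, 5 and 1, 5 and 3, and 10 and 5 (0.19 to 0.73). The numbers were taken to pair those days. For day 10 with days 1 and 3 the lowest was -0.07. Differently numbered libraries had a median of -0.09 but reached 0.55. Library 4 of day 3 was closer to library 3 of day 5 (0.55) than to library 4 (0.42). The numbers thus did not always single out the closest library. The 10 members, the gene lists and the tests were chosen with earlier results of these data known. Named genes are the members, tested partners, up to 3 called genes at each end of other lists on day 10 against day 1, and the 3 nearest genes by r.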

Additional observations from a re-analysis of the deposited data

Results flagged for a closer look

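In 24 groups of 4 libraries, the gap of the highest or lowest library was set against the range of its group, and 4 groups passed Dixon's 95% critical value; chance alone passes about 1 group in 20. Plagl1 in library 2 of day 10 stood at 69.7 CPM, below the other 3 libraries at 128 to 137 CPM. Peg10 in library 1 stood at 1171 CPM on day 3 and at 695 CPM on day 5, above the other libraries of those days. Grb10 in library 1 of day 3 stood at 862 CPM, above the other libraries at 723 to 733 CPM.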

How the results depend on the processing

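Of 420 log2 differences recomputed with all libraries kept, 396 kept direction and side of the threshold. The members called higher on day 3 against day 1 went from 2 to 1 with a pseudocount of 5 and to 0 with libraries 3 and 4 averaged. On day 5 against day 1 they went from 2 to 1 with no filter, with plain CPM and with averaging. On day 10 against day 3 they went from 3 to 1 with a filter at 5 CPM, under which Dlk1 and Ndn were not tested. With averaging, which leaves fewer libraries, they went to 0. The lower calls of day 5 against day 3 went from 2 to 0 with averaging. Plagl1 on day 10 against day 1 turned to -0.015 with averaging, and H19 on day 5 against day 3 turned from -0.43 to 0.15 with edgeR and 0.16 with DESeq2; the cause was not tested.

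With the replicate block, members called from day 5 to day 10 were 2 higher and 1 lower. On day 10 against day 1 the block gave 5 higher (Plagl1 and Ndn added), against 27.8% of all genes in that fit. Dlk1, counted among the 5, was tested only through day 10. For these days the library numbers do not pair the samples by the test used. The block moved no call for the other paired days. Over all tested genes the block raised the calls from day 5 to day 10 from 5.77% to 12.4%, and averaging lowered them to 0.801%.

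Leaving out libraries gave these ranges of members called, higher then lower: 0 to 2 and 0 to 1 for day 3 against day 1, 1 to 2 and 2 to 2 for day 5 against day 1, 2 to 4 and 2 to 2 for day 10 against day 1, 0 to 0 and 0 to 2 for day 5 against day 3, 0 to 4 and 2 to 3 for day 10 against day 3, and 0 to 1 and 0 to 1 for day 10 against day 5. Differences that changed sign ranged from -0.046 to 0.10 (Grb10, day 3 against 1), -0.030 to 0.35 (Plagl1, 10 against 1), -1.24 to 0.14 (H19, 5 against 3), -0.40 to 0.077 (Plagl1, 5 against 3), -0.28 to 0.071 (Mest, 10 against 5), -0.28 to 0.23 (Peg10, 10 against 5) and -0.044 to 0.13 (Grb10, 10 against 5). In all 19 of these, Mest and Peg10 stayed lower and Peg3 higher on days 5 and 10 against day 1, and H19 higher on day 10 (highest adjusted p 0.0335). Depth limits Meg3, Slc38a4 and Igf2, which lay under the filter.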
